A study of Mus musculus with 19 samples.

Results

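Double negative cells of mouse skin squamous cell carcinoma were compared with proliferative cells sorted from the same tumours. Double negative cells were low both for CD71 on their surface and for a histone H2B-GFP label (CD71lo H2BGFPlo), and proliferative cells were high for CD71 and low for the label (CD71hi H2BGFPlo). Every gene of the authors' deposited table of expression ratios was taken, 1609 genes in all, each with 1 log2 ratio of double negative to proliferative cells in each of 2 tumours, SCC1 and SCC2. The ratios come from 4 of the 19 samples of the series, 1 RNA library per population and tumour. Quiescent cells of these tumours, low for CD71 and high for the label (CD71lo H2BGFPhi), are set beside them in a few places.

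Per the labels, all 3 populations came from skin tumours of the C57BL/6 strain that grew as allografts after 10000 cells had been put into the skin, and RNA was taken from 100000 sorted cells per library. None of these populations carried a treatment or a genotype in the labels beyond the H2BGFP label. The authors' merged list of ATAC peaks, used below, is by its name pooled over all ATAC libraries. Those of the series also include CD71hi H2BGFPhi cells and another tumour, SCC3, labelled as a Tgfbr2 knockout (Tgfbr2KO). The sources used here do not give the promoter that drives the label, the age and kind of the host animals, the origin of the injected cells or any gate other than CD71 and H2BGFP. The labels give the cell type of the double negative libraries as squamous cell carcinoma.

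CD71 is the transferrin receptor, which takes iron-loaded transferrin into the cell and is abundant on dividing cells. A histone label made before it is switched off is shared out between daughter cells. Among cells that once carried it, a low label marks those whose line of descent has divided. Cells that never carried the label are low as well. A low label does not say whether a cell is dividing at the time of the sort. Cells that divide make the RNA of the division machinery in waves. Genes for DNA synthesis come on first under E2F factors, and genes for the spindle, the kinetochore and cytokinesis follow, many of them through a promoter element called the cell cycle genes homology region (CHR), which is read by the MuvB complexes with B-MYB and FOXM1 or, in resting cells, by the DREAM repressor.

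The table holds ratios and no levels, so the depth behind each value is unknown, and with 1 library per population and tumour calls were made by size and direction. An exact sign permutation over 2 tumours cannot give a p below 0.5. Genes whose log2 ratio was 1 or more in size, a 2-fold difference, with the same sign in both tumours were counted as higher or lower in double negative cells. By this rule 250 genes, 15.5% of the table, were higher and 406 genes, 25.2%, were lower. Counts of list members below are to be read beside these shares. A paired test of the mean ratio of both tumours against 0 (limma, 1 residual degree of freedom per gene, Benjamini-Hochberg adjustment over 1584 genes, added after the values were seen) put 352 genes (22.2%) higher and 560 (35.4%) lower at an adjusted p under 0.05. Of the called genes in that fit, 216 of 242 higher and 396 of 400 lower genes passed it. The fit uses the same ratios as the calls, so this overlap gives no separate support. Its spread is pooled over genes that the authors chose, so its adjusted p-values are a description. From 1 tumour alone 387 genes (SCC1) or 412 genes (SCC2) were higher. At any size 42.6% were above 0 and 50.9% below 0 in both tumours, and 97 genes, 6.03%, had opposite signs. Of all calls 38.1% were higher, and 61.4% were higher once each tumour's ratios were centred on their median, which stood at -0.35 in SCC1 and -0.34 in SCC2 per the authors' deposited table. The authors' name for the table is of differentially expressed genes, and the sources used here do not give the rule by which genes entered it. Its shares, its agreement between tumours and its list medians therefore do not describe all expressed genes. In RNA of sorted cells, fewer cells of a type and less RNA per cell cannot be told apart.

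Tfrc, the gene of CD71, had log2 ratios of double negative to proliferative cells of -1.63 in SCC1 and -2.02 in SCC2 per the authors' deposited table, so the sort marker was lower in both tumours. Cldn5, a tight junction protein of endothelial cells, stood at 6.84 in SCC1 and 4.53 in SCC2 per the authors' deposited table. Egfl7, a factor secreted by endothelial cells, stood at 3.34 and 1.63 per the authors' deposited table. Both endothelial genes were therefore higher in the double negative libraries, although these are labelled as carcinoma cells. Of 24 basal keratinocyte and epithelial genes listed as a check of the labelled cell type, 3 were in the table and none of them was counted as higher or lower. Krt5 and Krt14, which define basal keratinocytes, were not among the 1609 genes.

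Across the 1584 genes whose ratios were below the limit of the table in both tumours, Pearson's r between the tumours was 0.85 and Spearman's rho 0.87, as a description of genes that are not independent replicates. The size of the difference between the tumours had medians of 0.38 on the log2 scale over these genes. It was 0.54 among genes counted as higher and 0.32 among genes counted as lower. A ratio of exactly 12 in size, found for 11 genes in SCC1 and 19 in SCC2, was taken as an undefined ratio. Ratios of 12 or more in size were used for their direction and were let through the size rule for a call. This also took in Dynlt1c,Dynlt1f, at -12.51 in SCC1 per the authors' deposited table. Without genes at this limit 242 were counted as higher and 400 as lower. Just inside the rule for a call lay 2610307P16Rik, at 1.00 and 2.63, and just outside it by their unrounded values lay Crlf2, at 1.00 and 1.09, and Gpc4, at 1.31 and 1.00 per the authors' deposited table.

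**Figure D1:**
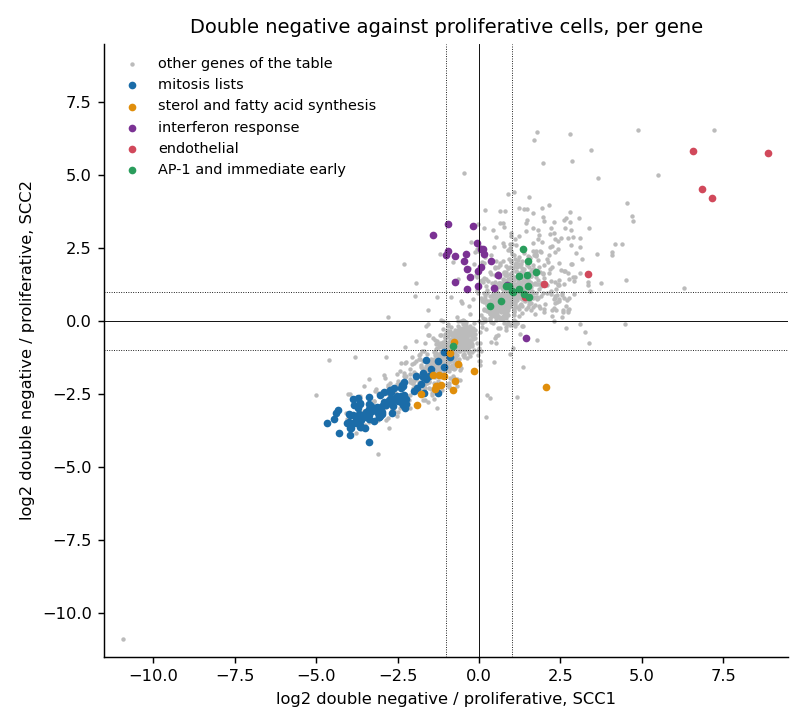
Each point is a gene, with its log2 ratio of double negative to proliferative cells in SCC1 on the x axis and in SCC2 on the y axis. Genes with a ratio at the limit are left out, and dotted lines mark ratios of 1 in size. The mitosis lists lie in the lower left corner, the endothelial genes towards the upper right, and the interferon response genes above 0 in SCC2 and around 0 in SCC1.

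The promoters of 5 genes are printed to show where the motifs searched for lie in genes that lead their groups. They were taken from RefSeq (GRCm38.p6), run 5′ to 3′ on the gene's strand from 250 bases before the start of transcription to 50 bases after it, and capitals mark every match to one of 9 motifs on either strand. Cenpf (a kinetochore protein), Top2a (the topoisomerase that untangles replicated DNA), Fosb (an AP-1 factor) and Mmrn1 (a secreted protein of lymphatic endothelial cells) lead their gene groups among genes with a promoter entry. Idi1, an enzyme of cholesterol synthesis, was added after its values were seen. Cenpf lies on the minus strand (chr1:189688037-189688336), as do Top2a (chr11:99024140-99024439) and Fosb (chr7:19309996-19310295), and Mmrn1 (chr6:60944067-60944366) and Idi1 (chr13:8885356-8885655) lie on the plus strand.
Cenpf: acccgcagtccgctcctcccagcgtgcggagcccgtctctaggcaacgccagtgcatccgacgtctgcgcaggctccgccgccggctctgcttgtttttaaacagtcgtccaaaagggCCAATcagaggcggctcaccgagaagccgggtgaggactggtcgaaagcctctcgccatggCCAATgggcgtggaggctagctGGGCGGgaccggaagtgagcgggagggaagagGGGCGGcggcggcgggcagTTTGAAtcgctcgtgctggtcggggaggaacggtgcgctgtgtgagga
Top2a: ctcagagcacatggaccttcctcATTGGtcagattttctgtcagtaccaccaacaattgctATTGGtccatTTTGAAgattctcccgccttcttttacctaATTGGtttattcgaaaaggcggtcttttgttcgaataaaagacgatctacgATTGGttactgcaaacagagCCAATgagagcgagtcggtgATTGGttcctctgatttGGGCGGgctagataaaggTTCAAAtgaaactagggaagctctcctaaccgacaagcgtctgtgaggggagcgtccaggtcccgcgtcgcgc
Fosb: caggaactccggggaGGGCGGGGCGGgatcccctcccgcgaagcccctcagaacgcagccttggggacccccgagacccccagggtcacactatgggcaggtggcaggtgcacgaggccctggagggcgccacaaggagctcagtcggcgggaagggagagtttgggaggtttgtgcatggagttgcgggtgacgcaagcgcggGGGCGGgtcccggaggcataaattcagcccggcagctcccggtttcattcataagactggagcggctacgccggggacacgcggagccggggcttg
Mmrn1: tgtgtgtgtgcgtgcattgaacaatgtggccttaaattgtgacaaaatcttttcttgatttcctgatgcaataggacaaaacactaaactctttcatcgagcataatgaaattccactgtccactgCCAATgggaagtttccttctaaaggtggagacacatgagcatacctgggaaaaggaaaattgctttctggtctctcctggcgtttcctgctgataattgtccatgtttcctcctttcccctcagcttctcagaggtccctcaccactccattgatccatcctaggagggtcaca
Idi1: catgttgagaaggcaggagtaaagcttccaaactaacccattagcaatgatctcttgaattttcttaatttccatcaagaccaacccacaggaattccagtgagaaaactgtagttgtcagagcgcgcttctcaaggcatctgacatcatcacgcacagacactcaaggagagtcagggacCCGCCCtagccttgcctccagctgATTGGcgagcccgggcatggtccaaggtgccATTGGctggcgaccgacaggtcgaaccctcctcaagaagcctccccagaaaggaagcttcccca

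In the Cenpf promoter the capitals are 2 CCAAT boxes, 2 GC boxes (GGGCGG) and 1 CHR (TTTGAA) whose first base is base 3 counted from the start of transcription. Top2a has 6 CCAAT boxes, 1 GC box and 2 CHR matches, the nearer of which begins 23 bases before the start. Fosb has 3 GC boxes, of which 2 overlap, Mmrn1 a single CCAAT box, and Idi1 2 CCAAT boxes and 1 GC box. A merged ATAC peak, a region of open chromatin in the authors' merged list, lay over each of these promoters except that of Mmrn1, which had 0.

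The CHR was looked for as TTTGAA on both strands in every promoter of the same length. It stood in 25 of 33 promoters of spindle and cytokinesis genes (75.8%), 16 of 33 of kinetochore and centromere genes (48.5%) and 8 of 40 of DNA replication genes (20.0%). Over all genes with a promoter entry the share was 20.2% (5466 of 27025). Among genes counted as lower it was 36.7% (117 of 319), among genes counted as higher 12.7% (22 of 173), and among the remaining genes of the table it was 14.3% (105 of 734). The matches also lay in a narrow place, since 26 of 35 in spindle promoters (74.3%) and 14 of 16 in kinetochore promoters (87.5%) began within 50 bases of the start, against 1702 of 6737 (25.3%) over all genes.

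Of the 12 genes with the lowest ratios, 10 had a promoter entry and 7 of these had such a match, and 6 are shown here beside Cenpf to let the surrounding letters be compared, each with 15 bases on either side of the CHR in capitals. TTCAAA is the CHR read on the other strand. They are from Cdkn3 (chr14:46760415-46760450), Ube2c (chr2:164769885-164769920), Cep55 (chr19:38054993-38055028), Ndc80 (chr17:71526808-71526843, minus strand), Kif15 (chr9:122951047-122951082) and Depdc1a (chr3:159495402-159495437), on the plus strand unless stated.
Cdkn3: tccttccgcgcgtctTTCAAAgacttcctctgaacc
Ube2c: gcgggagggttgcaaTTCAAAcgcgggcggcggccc
Cep55: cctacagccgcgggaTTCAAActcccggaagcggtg
Ndc80: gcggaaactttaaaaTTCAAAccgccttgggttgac
Kif15: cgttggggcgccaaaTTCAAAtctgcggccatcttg
Depdc1a: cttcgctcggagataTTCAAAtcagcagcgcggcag

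The CCAAT box (CCAAT, both strands), bound by NF-Y, stood in 24 of 33 kinetochore promoters (72.7%), 21 of 33 spindle promoters (63.6%), 25 of 40 replication promoters (62.5%) and 8 of 10 promoters of sterol and fatty acid genes (80.0%), against 41.1% over all genes. It was in 61.4% of promoters of genes counted as lower and in 45.1% of those counted as higher. An E2F motif, TTTGGCG on either strand, was in 13 of 40 replication promoters (32.5%), against 1.77% over all genes, 9.72% of genes counted as lower and 0.578% of genes counted as higher. A second E2F motif, TTTCCCG, was in 17.5% of replication promoters, against 6.95% of uncalled genes of the table and 3.92% over all genes. TTTCCCG was also in 14.1% of genes counted as lower, 2.89% of those counted as higher, 15.2% of kinetochore promoters and 6.06% of spindle promoters. On the gene's strand alone it was in 1 of 40 replication promoters (2.5%), against 2.05% over all genes. Of 5 endothelial promoters 1 held a CHR (20.0%) and 2 a CCAAT box (40.0%), close to the shares over all genes. For the immediate early genes the AP-1 site TGANTCA and the cyclic AMP element TGACGTC were each in 1 of 12 promoters, and the sterol element TCACNCCAC, added after the values were seen, was in 1 of 10 sterol promoters, against 8.97%, 3.60% and 1.44% over all genes. A match is a description of letters, and no match says only that the letters are not in this window.

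Of the 37 lists, those of mitotic genes had the lowest medians in double negative cells. All 40 kinetochore and centromere genes in the table (of 44 listed) and all 37 spindle and cytokinesis genes (of 39) were counted as lower, against 25.2% of the table. So were 27 of 28 cyclins and mitotic kinases (of 32 listed) and 9 of 11 condensin and cohesin genes (of 12). The median log2 ratios of the authors' deposited table came to -2.82 in SCC1 and -2.78 in SCC2 for kinetochore genes, -3.37 and -3.10 for spindle genes, -3.14 and -3.04 for cyclins and kinases, and -2.81 and -2.70 for condensin and cohesin genes. Quiescent cells were lower too, with medians against proliferative cells of -3.57 and -1.55 for kinetochore and -4.31 and -1.71 for spindle genes per the authors' deposited table. The ratio of quiescent to double negative cells changed sign between the tumours. Its medians were -0.88 in SCC1 and 0.95 in SCC2 for kinetochore genes, and -0.97 and 1.14 for spindle genes per the authors' deposited table.

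Among kinetochore genes, Ska1, which couples chromosomes to shrinking microtubules, had ratios of -4.30 in SCC1 and -3.83 in SCC2 per the authors' deposited table. Cenpf stood at -3.94 and -3.64 and Ndc80, which grips the microtubule, at -3.63 and -3.61 per the authors' deposited table. Nuf2, the partner of Ndc80, was at -4.04 and -3.49 per the authors' deposited table. These genes were low to a like degree in both tumours. The values nearest to 0 were -1.06 in SCC1, for 6430706D22Rik, and -1.34 in SCC2, for Dsn1 per the authors' deposited table.

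Among spindle genes, Cep55, which acts at the final cut between daughter cells, was at -3.66 and -3.64, and Kif15, a motor that keeps spindle poles apart, at -3.94 and -3.54 per the authors' deposited table. Depdc1a stood at -3.75 and -3.50 and Fam64a at -3.49 and -3.64 per the authors' deposited table. The weakest member was Ckap5, a microtubule polymerase also used outside mitosis, at -1.06 and -1.07 per the authors' deposited table.

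Of the cyclins and kinases, Ccnb1, the cyclin that drives entry into mitosis, was at -3.97 and -3.89 per the authors' deposited table. Ube2c, which tags cyclins for destruction, stood at -3.97 and -3.67, and the centrosome kinase Nek2 at -3.64 and -3.54 per the authors' deposited table. Plk1, a kinase needed for spindle assembly, had ratios of -3.38 and -3.34 per the authors' deposited table. Mki67, the gene of the proliferation marker Ki-67, was lower by more in SCC1 (-4.40) than in SCC2 (-3.15) per the authors' deposited table. Ccnd1, a cyclin of early G1, was the member not counted, with -0.88 and -1.23 per the authors' deposited table. Among condensin and cohesin genes, Esco2, which acetylates cohesin, was lowest, at -3.87 and -3.50, followed by Ncapg (-3.53, -3.07), Ncaph (-3.22, -3.01) and Smc2 (-3.02, -2.94) of the condensin complex per the authors' deposited table. The 2 members not counted were the cohesin core genes Rad21 (-0.61, -0.99) and Smc3 (-0.69, -0.86) per the authors' deposited table.

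The remaining genes of the 12 lowest were Cdkn3, a phosphatase of cyclin-dependent kinases (-3.78, -3.82), Shcbp1 (-3.95, -3.55) and Ndufs5, a subunit of mitochondrial complex I per the authors' deposited table. Ndufs5 stood apart at -10.93 in SCC1 and -10.87 in SCC2 per the authors' deposited table. Its ratios of quiescent to proliferative cells were 2.26 in SCC1 and -10.17 in SCC2 per the authors' deposited table. With no level given, nothing more can be said of that gene.

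DNA replication genes were lower by less than mitotic genes. Of 49 in the table (54 listed) 44 were counted as lower, with medians of -1.67 (SCC1) and -1.94 (SCC2) per the authors' deposited table. Top2a had ratios of -3.81 and -3.27 per the authors' deposited table. Rrm2, the regulated subunit of ribonucleotide reductase, stood at -3.11 and -2.92, and Tk1, thymidine kinase, at -2.84 and -2.95 per the authors' deposited table. Mcm10, which helps to start forks, was at -3.64 and -2.62 per the authors' deposited table. The sliding clamp Pcna was among the weaker members, at -1.15 and -1.34 per the authors' deposited table. All 49 were below 0 in both tumours.

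Of 31 repair and checkpoint genes (35 listed) 30 were counted as lower, with medians of -2.33 and -2.32 per the authors' deposited table. Rad54b, a helper of homologous recombination, was at -3.09 and -3.38, and Neil3, a DNA glycosylase, at -3.69 and -3.06 per the authors' deposited table. Trip13 stood at -3.08 and -3.03 and Fancd2, of the Fanconi anaemia pathway, at -3.02 and -3.17 per the authors' deposited table.

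Histone genes were split. Of 16 in the table, 7 were counted as lower and 5 as higher, with medians of -0.70 and -1.19 per the authors' deposited table. Hist1h3g was at -3.81 in SCC1 and at the limit of -12 in SCC2 per the authors' deposited table. Others counted as lower were the linker histone Hist1h1b (-3.11, -4.55) and Hist1h2ae (-2.55, -2.66) and Hist1h3c (-3.17, -2.32) per the authors' deposited table. Those higher were led by Hist2h3c2 (2.22, 3.20) and Hist1h1c (1.99, 1.92) per the authors' deposited table. Histone genes are near-identical copies of each other, so the way reads were shared out between them could move single values.

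Of the controllers of the cycle, 3 of 4 E2F and pocket protein genes in the table (11 listed) were counted as lower, among them E2f8 at -2.68 and -3.06 per the authors' deposited table. E2f1, at -0.94 and -1.32, was not counted, and Rbl1, a pocket protein, stood at -1.01 and -1.27 and Tfdp1 at -1.11 and -1.38 per the authors' deposited table. Of 9 MYC and ribosome biogenesis genes (35 listed) all were below 0 in both tumours and 2 were counted, against 25.2% of the table. Those counted were Odc1, the first enzyme of polyamine synthesis (-1.22, -1.25), and Mycn (-1.07, -1.02) per the authors' deposited table. From SCC1 alone 5 were counted, and centred on the tumours' medians 0 were counted. Of 10 antiproliferative genes (21 listed) the one counted as higher was Btg2, at 1.56 and 1.58 per the authors' deposited table. Cdkn2c, an inhibitor of CDK4 and CDK6, was counted as lower, at -1.10 and -1.51 per the authors' deposited table. Of 15 listed p53 targets 2 were in the table and 0 were counted, with Phlda3 at 0.70 and 0.66 and Trp53inp1 at 0.84 and 1.29 per the authors' deposited table.

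**Figure D2:**
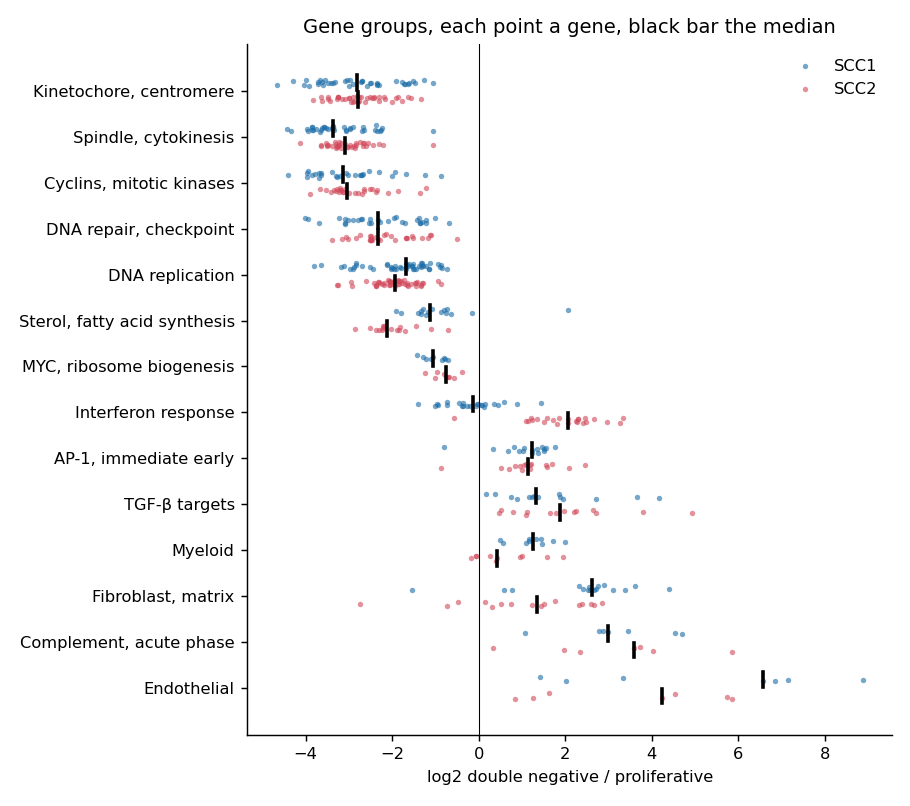
Log2 ratios of double negative to proliferative cells (x axis) for the members of 14 gene groups (rows). Each point is a gene in SCC1 (blue) or SCC2 (red), and a black bar is the median of the group in that tumour. The mitosis groups lie wholly below 0, the interferon response group differs between the tumours, with medians of -0.13 in SCC1 (0.22 once centred) and 2.07 in SCC2, and the endothelial group has medians of 6.57 in SCC1 and 4.24 in SCC2.

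The endothelial list had the highest medians of the 37 lists in both tumours. Of 45 listed, 7 were in the table, and 6 of them were counted as higher, against 15.5% of the table. Their medians were 6.57 in SCC1 and 4.24 in SCC2 per the authors' deposited table. The 38 endothelial genes without a ratio include Pecam1, Cdh5 and Kdr, which define the cell type, and their direction is unknown.

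Mmrn1 had ratios of 8.89 in SCC1 and 5.75 in SCC2 per the authors' deposited table. Lyve1, the hyaluronan receptor of lymphatic vessels, stood at 7.15 and 4.24, and Ramp2, the partner of the adrenomedullin receptor, at 6.57 and 5.84 per the authors' deposited table. Eng, a co-receptor for TGF-β, was at 2.01 and 1.26, and the peptide gene Apln at 1.41 and 0.84 per the authors' deposited table. All 7 were above 0 in both tumours, and all 7 were higher by more in SCC1 than in SCC2.

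Several of these genes are known for lymphatic vessels. A list of 15 lymphatic endothelial genes was drawn up after the values had been seen, so its counts support nothing by themselves. Of these, 7 were in the table and all 7 were counted as higher, with medians of 4.71 (SCC1) and 3.43 (SCC2) per the authors' deposited table. Tbx1, a transcription factor with a part in lymphatic development, stood at 4.71 and 3.43, and Angpt2, a ligand of the Tie receptors, at 3.36 and 1.22 per the authors' deposited table. The neuropeptide gene Nts was at the limit of 12 in both tumours per the authors' deposited table. Nr2f2, a factor of venous and lymphatic cells, was at 1.01 and 1.04, and the growth factor Vegfc at 1.09 and 1.26 per the authors' deposited table. The lymphatic chemokine locus, given in the table under the joint name Ccl21a,Gm1987, had ratios of 7.23 and 6.56, and its near-identical copy Gm1987 had 4.89 and 6.55 per the authors' deposited table, and reads may be split between the copies. Prox1, Flt4 and Pdpn, which define lymphatic endothelium, were not among the 1609 genes.

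Quiescent cells of the same tumours are also low for CD71, and their ratios to proliferative cells share the proliferative libraries with the ratios given so far. For the endothelial list the medians against proliferative cells were 6.57 in SCC1 and 4.24 in SCC2 for double negative cells, and -0.08 and 0.88 for quiescent cells per the authors' deposited table. Lyve1 in quiescent cells stood at -0.08 and 0.19 and Mmrn1 at 0.57 and 0.84 against proliferative cells per the authors' deposited table. Ramp2 in quiescent cells stood at -0.53 in SCC1 and 5.11 in SCC2 per the authors' deposited table. Cldn5 in quiescent cells stood at -0.83 in SCC1 and 2.75 in SCC2, Eng at 0.72 and 1.88, and the Ccl21a,Gm1987 entry at -0.03 and 3.84 per the authors' deposited table. Lyve1 and Mmrn1 were thus within 1 of the proliferative level in quiescent cells of both tumours, while Ramp2, Cldn5, Eng and Ccl21a,Gm1987 were above it in quiescent cells of SCC2.

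The deposited ratio of quiescent to double negative cells gives the same contrast directly, although it is not independent, since the 3 ratios of a tumour close to within a median of 0.039 (SCC1) and 0.027 (SCC2) per the authors' deposited table. In both tumours 16 genes, 0.994% of the table, were at least 2-fold higher in double negative cells than in either other population. They were Lyve1, Mmrn1, Cldn5, Tbx1, Angpt2, Nts and both Ccl21a entries, with Ace (angiotensin-converting enzyme), Hp (haptoglobin), Ogn (a small proteoglycan of matrix), Grem1 (a secreted BMP antagonist), Emid1, Glrb, Megf10 and Mir25. Nts and Mir25 were at the limit of 12 against proliferative cells in both tumours, so their fold against those cells is undefined. For Cldn5 the ratio of quiescent to double negative cells was -7.70 in SCC1 and -1.81 in SCC2 per the authors' deposited table. For Tbx1 it was -4.02 and -2.84 per the authors' deposited table. Of the 16 genes, 8 belong to the endothelial or lymphatic genes named here. Among those, Tbx1, Angpt2 and Nts were listed after the values were seen, and the near-identical Ccl21a entries were on neither list. The count therefore supports nothing by itself.

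**Figure D3:**
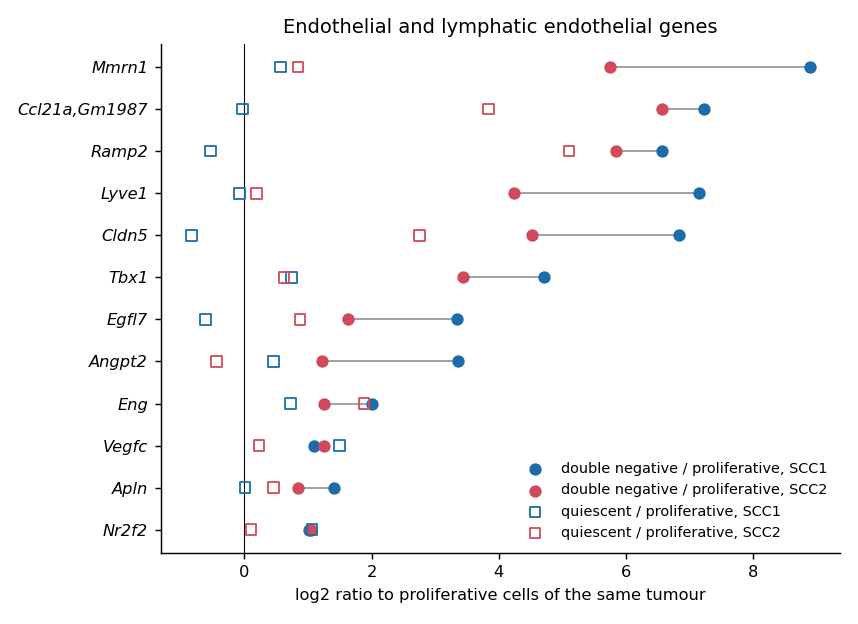
Log2 ratios to proliferative cells of the same tumour (x axis) for 12 endothelial and lymphatic endothelial genes (rows). Filled circles are double negative cells and open squares quiescent cells, blue for SCC1 and red for SCC2. For Mmrn1, Lyve1 and Tbx1 the circles of both tumours lie at 3.43 or above and the squares below 1.

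Other markers of cells that are not carcinoma cells moved with the comparison. Of 29 fibroblast and matrix genes 16 had a ratio, 8 counted as higher and 1 as lower, against 15.5% and 25.2% of the table. Their medians were 2.62 (SCC1) and 1.34 (SCC2) per the authors' deposited table. From SCC1 alone 13 were counted as higher. Their ranges were wide, and 15 of 16 were above 0 in SCC1 and 13 in SCC2. Ogn stood at 3.10 and 2.86, Dcn, the proteoglycan decorin, at 4.39 and 2.65, and Col5a1 at 2.32 and 2.38 per the authors' deposited table. Thy1, a surface protein of fibroblasts among other cells, was at 3.61 and 2.31 per the authors' deposited table. Col1a1, the main fibrillar collagen, was at 2.71 in SCC1 and 0.74 in SCC2 and was not counted, and Fbln1, a matrix protein, was lower at -1.55 and -2.75 per the authors' deposited table. The same list in quiescent against proliferative cells had medians of 0.08 (SCC1) and 4.07 (SCC2) per the authors' deposited table.

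Of 29 myeloid genes 10 were in the table and 1 was counted, H2-Ab1, an MHC class II chain, at 1.46 and 1.95 per the authors' deposited table. The list's medians were 1.24 in SCC1 and 0.41 in SCC2 per the authors' deposited table, and 8 of 10 members were at 1 or more in SCC1 and 2 in SCC2. Cd74, the chain that escorts MHC class II, stood at 0.57 and 1.00, H2-Aa at 0.50 and 1.58 and H2-Eb1 at 1.09 and 0.95 per the authors' deposited table. The 6 members outside MHC class II (Cd14, Cd53, Tyrobp, Laptm5, Ctss and Lyz2) were at 1.16 or more in SCC1 and at 0.42 or less in SCC2, as for Cd53 at 1.72 and 0.25, Tyrobp, a signalling adaptor, at 1.44 and 0.42, and Lyz2, a lysozyme, at 1.16 and -0.07 per the authors' deposited table. Of 13 pericyte and smooth muscle, 16 lymphoid, 10 erythroid and 10 melanocyte and Schwann cell genes listed, 0 were in the table, which leaves them without a value. Of 10 fat and muscle genes only Tnnt3, a troponin, was in it, at -1.84 and -1.29 per the authors' deposited table.

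The part of other cell types in the results was not tested. Without the genes of the cell type lists the counts were 235 higher and 405 lower, and 224 and 405 without the lymphatic and neutrophil genes as well. Open regions were counted at the same genes: 5 of 7 endothelial genes and 12 of 16 fibroblast genes had a merged ATAC peak within 10 kb, and Cldn5 and Egfl7 had 0. Such a peak was also found at 10 of 10 myeloid, 6 of 7 lymphatic endothelial and 10 of 12 neutrophil genes. Of the basal keratinocyte and epithelial genes 1 of 3 had a peak. All genes of the kinetochore, spindle, cyclin, replication, repair and condensin lists had at least 1. The share was 70.5% of protein-coding genes outside the table and 94.2% of its uncalled genes.

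Genes of the complement and acute phase were high in both tumours. Of 16 listed, 7 were in the table and 6 were counted as higher, against 15.5% of the table. Their medians were 2.99 (SCC1) and 3.59 (SCC2) per the authors' deposited table. Lcn2, a protein that binds iron siderophores, had ratios of 4.54 and 4.04, and Serping1, which inhibits the first complement proteases, 2.99 and 2.34 per the authors' deposited table. Cp, the copper oxidase ceruloplasmin, which loads iron onto transferrin, was at 3.44 and 5.85, and Hp at 2.79 and 3.73 per the authors' deposited table. Cfb, a complement protease, was above 0 and not counted, at 1.07 and 0.32 per the authors' deposited table. In quiescent cells the same list had medians of 0.12 (SCC1) and 4.59 (SCC2) against proliferative cells per the authors' deposited table. The fibroblast list, with medians of 2.62 (SCC1) and 1.34 (SCC2) per the authors' deposited table, moved with these genes, and its part was not tested.

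Iron genes were split in 2 directions. Cp and Lcn2 were counted as higher, and Tfrc and the ferrireductase gene Steap1 (-1.17, -1.19) as lower, of 5 in the table and 16 listed per the authors' deposited table. Steap2 stood at -0.56 and -0.53 per the authors' deposited table.

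Immediate early genes, which code for AP-1 and other factors that come on within minutes of a stimulus and also during tissue dissociation, were higher by small amounts. Of 16 in the table (30 listed) 9 were counted as higher, against 15.5% of the table, and 0 as lower, with medians of 1.23 (SCC1) and 1.15 (SCC2) per the authors' deposited table. Centred on the tumours' medians 14 were counted as higher, and 0 had ratios of 2 or more in both tumours. Fosb stood at 1.76 and 1.70, Fos at 1.46 and 1.58, and Dusp1, a phosphatase that switches off MAP kinases, at 1.50 and 2.08 per the authors' deposited table. Atf3, a stress factor of the same family, was at 1.35 and 2.46 per the authors' deposited table. Fosl1 was the exception, below 0 at -0.81 and -0.86 per the authors' deposited table. The other 15 were above 0 in both tumours. In quiescent cells the list had medians of 1.78 and 0.85 against proliferative cells per the authors' deposited table. The sources used here do not say how the tumours were dissociated.

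TGF-β holds epithelial cells back from division, and squamous carcinoma cells at the edge of the tumour are known to respond to it. Of 35 listed TGF-β targets 14 had a ratio. Among them 8 were counted as higher and 0 as lower, against 15.5% and 25.2% of the table. The list had medians of 1.33 (SCC1) and 1.88 (SCC2) per the authors' deposited table. In quiescent against proliferative cells its medians were 1.25 and 1.63 per the authors' deposited table. Timp3, an inhibitor of matrix proteases, had ratios of 3.65 and 4.92 and Ctgf, a matricellular factor, of 4.17 and 2.64 per the authors' deposited table. Snai1, a repressor of epithelial genes, was at 1.94 and 2.71, and fibronectin, Fn1, at 2.72 and 1.65 per the authors' deposited table. Tnc, a matrix glycoprotein, was near 0 in SCC1 (0.17) and high in SCC2 (3.80) per the authors' deposited table. Ltbp4, which binds latent TGF-β in the matrix, was at 1.37 and 1.80 per the authors' deposited table. Several of these genes are also made by fibroblasts, whose list moved with them, and its part was not tested.

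Of the pathway itself, 9 of 36 listed genes were in the table, and 5 were counted as higher, against 15.5% of the table. One of the 5 is Eng, at 2.01 and 1.26, which is also on the endothelial list, whose members moved with it (medians of 6.57 and 4.24), and their part was not tested per the authors' deposited table. Among ligands, Tgfb2 was counted, at 1.24 and 1.09, while Tgfb1 stood at 0.93 and 0.50 and Tgfb3 at 0.89 and 1.82 per the authors' deposited table. The BMP antagonist Grem1 had ratios of 1.95 and 5.43 per the authors' deposited table. Id1 and Id3, targets of BMP signals that block bHLH factors, stood at 1.93 and 1.30 and at 1.83 and 1.87 per the authors' deposited table. Id2 had opposite signs, 0.52 in SCC1 and -0.75 in SCC2 per the authors' deposited table.

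Genes of sterol and fatty acid synthesis, which SREBP factors switch on when cells are short of cholesterol, were lower. Of 16 in the table (24 listed) 9 were counted as lower, against 25.2% of the table, and 15 were below 0 in both tumours. Their medians were -1.13 (SCC1) and -2.12 (SCC2) per the authors' deposited table. Idi1 had ratios of -1.92 and -2.87 and Fdps, which joins isoprene units, of -1.79 and -2.51 per the authors' deposited table. Cyp51, the sterol demethylase, stood at -1.33 and -2.21, and Stard4, a carrier of cholesterol, at -1.18 and -2.19 per the authors' deposited table. Hmgcs1, an early enzyme of the pathway, was at -1.28 and -2.22 per the authors' deposited table. In 14 of these 15 genes SCC2 had the lower value, and Acaca, the enzyme that makes malonyl-CoA, was the exception at -0.77 and -0.72 per the authors' deposited table.

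Insig1, which holds SREBP back in the endoplasmic reticulum and is itself an SREBP target, went opposite ways, at 2.05 in SCC1 and -2.25 in SCC2 per the authors' deposited table. Targets of LXR, the receptor for oxidised sterols, were listed after the values had been seen. Of 12, 5 were in the table and 4 were counted as higher, with medians of 1.33 and 1.99 per the authors' deposited table. The cholesterol exporters Abca1 (2.47, 1.99) and Abcg1 (1.65, 3.20) and the ubiquitin ligase gene Mylip (1.33, 1.82) were among them per the authors' deposited table. Sterol synthesis genes in quiescent cells had medians of -1.46 and -1.43 against proliferative cells per the authors' deposited table. From SCC2 alone 15 sterol genes were counted as lower. Centred on the tumours' medians, 3 of the 16 sterol genes were counted as lower in double negative cells. That is a share like that of the whole table, where 280 of 1609 genes were counted. The centred medians of the sterol genes were -0.78 in SCC1 and -1.78 in SCC2.

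**Figure D4:**
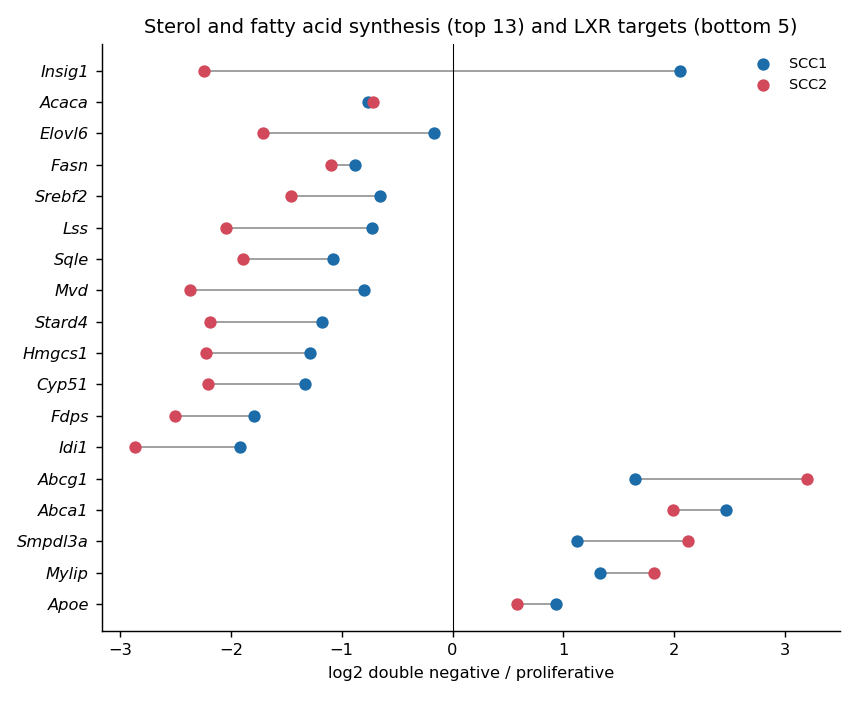
Log2 ratios of double negative to proliferative cells (x axis) for 13 of the 16 genes of sterol and fatty acid synthesis and 5 LXR targets (rows), blue for SCC1 and red for SCC2, with a line joining the tumours. Apart from Insig1, every synthesis gene shown lies below 0 in both tumours, and all 5 LXR targets lie above 0.

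Interferon response genes differed between the tumours. Of 24 in the table (39 listed) 0 were counted in either direction. In SCC2 23 of them were above 0, all 23 at 1 or more, with a median of 2.07 per the authors' deposited table. In SCC1 9 were above 0, 1 at 1 or more, with a median of -0.13, which was 0.22 once centred, so that its sign depends on the scaling per the authors' deposited table. Cxcl9, a chemokine that draws T cells, stood at -1.40 in SCC1 and 2.96 in SCC2 per the authors' deposited table. Ifit1, which binds viral RNA, was at -1.01 and 2.27, and Oasl2 at -0.96 and 2.42 per the authors' deposited table. Irf7 and Irf9, transcription factors of the interferon response, were at -0.04 and 1.72 and at 0.59 and 1.58 per the authors' deposited table. The gene highest in SCC1 was the monocyte chemokine Ccl7, at 1.45, and it was the 1 member below 0 in SCC2, at -0.57 per the authors' deposited table.

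Quiescent cells had interferon medians of -0.59 in SCC1 and 2.36 in SCC2 against proliferative cells per the authors' deposited table. Of 4 MHC class I genes in the table (16 listed) 0 were counted, and all were at 1 or more in SCC2, with H2-K1 at -0.65 and 1.44 and H2-D1 at 0.12 and 1.36 per the authors' deposited table. H2-Q10 stood at 0.70 and 1.12 and H2-T23 at 0.50 and 1.04 per the authors' deposited table. MHC class I genes are close copies, so single values may share reads.

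**Figure D5:**
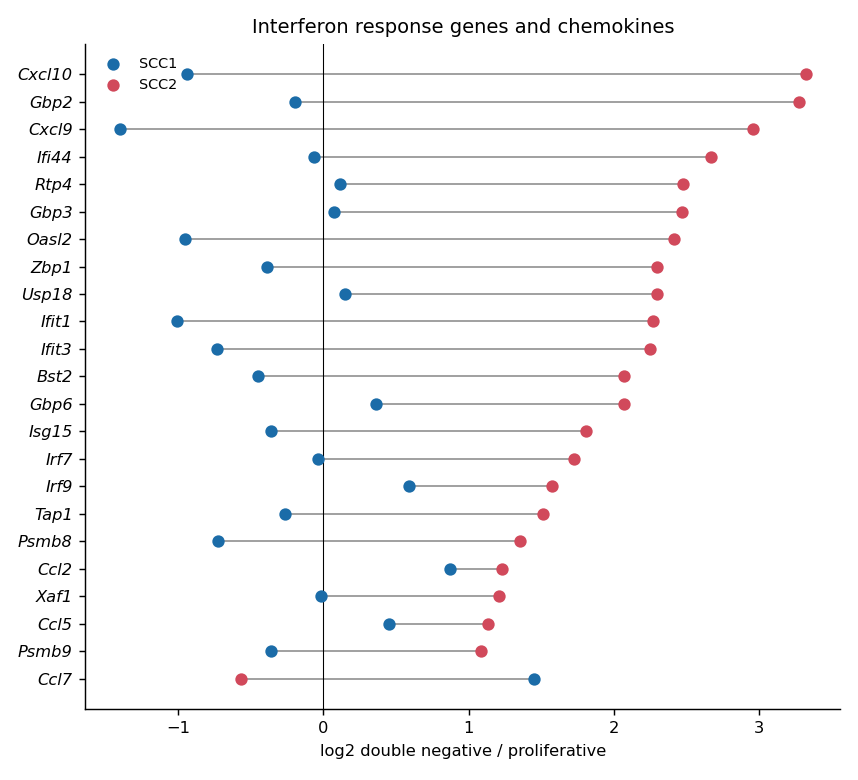
Log2 ratios of double negative to proliferative cells (x axis) for 23 of the 24 interferon response genes and chemokines (rows), blue for SCC1 and red for SCC2, with a line joining the tumours. In SCC2 every gene shown but Ccl7 lies at 1 or more, and in SCC1 the genes lie on both sides of 0.

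Epithelial and differentiation genes were few in the table. Epcam, an epithelial adhesion protein, stood at -1.93 in SCC1 and -0.68 in SCC2 per the authors' deposited table. Krt6b, a keratin of wounds, was at -1.54 and -0.47, and Krt16 at -0.87 and 0.84 per the authors' deposited table. Of 33 differentiation genes 5 were in the table, Prdm1, a repressor found in terminal differentiation (1.27, 1.56), and the protease gene Tmprss11g (1.23, 2.92) counted as higher and Krt13 (-1.06, -1.05) as lower per the authors' deposited table. Krtdap stood at -1.64 and -0.17 and Sprr1b at 0.08 and -0.18 per the authors' deposited table. Of 14 genes of epithelial to mesenchymal transition 3 were in the table, Epcam, Snai1 and Fn1, whose values are given above. Of 25 hair follicle and Wnt genes 5 were in the table and all above 0 in both tumours, 3 of them counted: Sfrp1, a Wnt antagonist (1.76, 2.42), the stem cell receptor Lgr6 (1.16, 1.85) and the Wnt factor Lef1 (1.12, 1.06) per the authors' deposited table. Dkk3, which stood at 0.75 and 0.93, was not counted per the authors' deposited table. Of 15 Notch genes only Nrarp, a feedback inhibitor and Notch target, was in the table, at -1.45 and -1.67 per the authors' deposited table.

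Of 11 stress and wound genes in the table (16 listed) 3 were counted as higher and 1 as lower. The shares of the whole table were 15.5% and 25.2%. Those higher were Lcn2, the acute phase protein Saa3 (2.87, 1.98) and the neutrophil chemokine Cxcl2 (1.09, 1.42) per the authors' deposited table. The cytokine Il24 (-4.59, -1.31) was lower per the authors' deposited table. From SCC1 alone 6 of the 11 were counted as higher. Of 7 antioxidant genes (30 listed) the extracellular enzymes Sod3 (2.29, 3.41) and Gpx3 (3.40, 1.03) were counted as higher and Gpx2, a peroxidase of epithelia, as lower (-1.64, -2.71) per the authors' deposited table. Nqo1, a quinone reductase and NRF2 target, missed the rule at -0.98 and -2.14 per the authors' deposited table. Of 3 hypoxia genes (24 listed) 0 were counted, with Ndrg1 at 1.29 and 0.58, Slc2a1, the glucose transporter GLUT1, at 1.04 and -0.05 and Ankrd37 at 0.70 and 0.14 per the authors' deposited table.

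Of 16 solute carriers 2 were counted as higher and 2 as lower, against 15.5% and 25.2% of the table. Slc6a14, a broad amino acid importer, had ratios of 1.62 and 1.77, and the glutamate transporter Slc1a3 of 1.49 and 3.48 per the authors' deposited table. Slc7a5, the leucine transporter LAT1, had -1.42 in both tumours and the mitochondrial carrier Slc25a13 -1.04 and -1.12 per the authors' deposited table.

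Among the 12 highest genes overall was also Lrg1, a secreted glycoprotein with a role in vessel growth, at 5.50 in SCC1 and 5.01 in SCC2 per the authors' deposited table. Also among them were Ccl21a,Gm1987, Ramp2, Mmrn1, Gm1987, Cldn5, Lyve1, Lcn2, Timp3, Cp and Tbx1. At the limit of 12 in both tumours of the authors' deposited table, 1700065J18Rik, Cd7, Lce1i, Mir25 and Nts were on the higher side and Mir682 on the lower side.

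Open chromatin and Smad2/3 binding were looked up around the genes, since the Smad2 and Smad3 proteins act for TGF-β in the nucleus. The accessible regions were a merged list of 61553 peaks with no level per population. By its name it pools all ATAC libraries, and those of the series include SCC3 Tgfbr2KO. The 6143 Smad2/3 sites came from SCC1 cells treated with TGFβ1. By the name of their list they are bound sites that also hold the motif, so other Smad2/3 binding is not counted. Within 10 kb of the gene, 86.7% of genes counted as higher (216 of 249, exact 95% binomial interval 81.9 to 90.7) and 97.8% of genes counted as lower (395 of 404, interval 95.8 to 99.0) had an ATAC peak. The share was 94.2% among the other 947 genes of the table with coordinates and 70.5% among 20370 other protein-coding genes. A Smad2/3 site lay within 10 kb of 20.5% of genes counted as higher (interval 15.6 to 26.0) and of 16.8% of genes counted as lower (interval 13.3 to 20.8). The share was 23.5% among the other genes of the table (interval 20.9 to 26.4) and 14.9% among other protein-coding genes. Between genes counted as higher and as lower, the Smad2/3 intervals at 10 kb overlap and the ATAC intervals do not. The Smad2/3 interval of the other genes of the table lies just above that of lower genes at 10 kb. With a window of 50 kb the ATAC intervals overlap, at 95.9 to 99.6 for higher and 98.2 to 99.9 for lower genes. Median gene length was 16.5 kb for higher and 20.5 kb for lower genes and was not allowed for. Neighbouring genes are not independent. Among TGF-β targets a site lay near 3 of 14, with Ctgf and Tnc among them, and among pathway genes near Eng, Fstl1, Id1, Id3 and Tgfb1, 5 of 9.

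Copy number called from ChIP input DNA labelled SCC1 and SCC2 was set beside the ratios of the same label. For these input libraries the labels give 12000000 cells and no number of cells injected. Whether the DNA came from the tumours that were sorted is therefore not known here. The median log2 ratio of double negative to proliferative cells was -0.06 for 716 genes in SCC1 gains and -0.46 for 848 genes without a call per the authors' deposited tables. In SCC2 it was -0.0015 for 696 genes in gains and -0.48 for 861 genes without a call per the authors' deposited tables. Genes in losses were few, 24 in SCC1 and 22 in SCC2, with medians of -0.11 and 0.04 per the authors' deposited tables.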

How the data were processed

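RNA values were log2 ratios between sorted populations of a tumour, as deposited by the authors. Per the submitters' processing notes, reads were processed with Cuffdiff 2.2.0, Cufflinks 2.2.0 and TopHat2 2.0.9 on build mm10; for double negative libraries the notes name mm9 too, and whether this moves ratios was not tested. The sources used here do not give read totals or the scaling between libraries. Copy number calls came with a p-value per region by the authors. Calls, medians, overlaps of at least 1 bp and motif searches were computed with scipy 1.17.1, pandas 2.3.3, numpy 2.4.6 and matplotlib 3.10.9 in Python 3.11.15, and the paired test with limma 3.58.1; the calling step and this test were tested on simulated data. Coordinates came from RefSeq GRCm38.p6, the assembly of mm10, for 1600 genes, 1492 by symbol and 108 by synonym. The gene lists (37, with 5 more added after values were seen) were chosen with earlier results of these data known. Promoter entries were found for 33 of 40 kinetochore, 33 of 37 spindle, 40 of 49 replication, 12 of 16 immediate early, 5 of 7 endothelial and 10 of 16 sterol genes. Genes named are the 12 highest and 12 lowest by the smaller of the ratios of both tumours, up to 4 per list by that measure, all endothelial members, the 8 of opposite sign with the largest values and those at the limit; other members were named after values were seen. A few members are counted in their lists and not reported here by name.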

Additional observations from a re-analysis of the deposited data

Results flagged for a closer look

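Leaving out ratios of 12 or more in size, the 8 genes with the largest ratios of opposite sign in the 2 tumours were picked out because SCC1 and SCC2 pointed different ways, and the difference was not tested. Of all 10 genes at 1 or more in size with opposite signs, the other two were Dynlt1c,Dynlt1f, at -12.51 in SCC1 and above 4 in SCC2, and Glb1l2, at 1.28 and -12 per the authors' deposited table. Values are log2 ratios of double negative to proliferative cells per the authors' deposited table. Insig1, a brake on sterol synthesis, was 2.05 in SCC1 and -2.25 in SCC2 per the authors' deposited table. Gbp1, an interferon-induced GTPase, was -2.30 in SCC1 and 1.98 in SCC2, and Tgtp1, another, was -1.19 and 2.30 per the authors' deposited table. Cxcl9 was -1.40 and 2.96 and Ifit1 -1.01 and 2.27 per the authors' deposited table. These 4 are interferon-induced genes and all were above 0 in SCC2 alone. Rnu11, a small nuclear RNA of the minor spliceosome, was 1.36 and -1.58, Prl2c5 -1.92 and 1.30, and Tnfaip8l3 1.18 and -2.58 per the authors' deposited table.

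The median of the interferon list was -0.13 in SCC1 (0.22 once centred on the median of all genes) and 2.07 in SCC2 per the authors' deposited table, and the difference was not tested. Beside it, the myeloid list had medians of 1.24 (SCC1) and 0.41 (SCC2) per the authors' deposited table, and its part in the interferon values was not tested.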

How the results depend on the processing

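Each ratio is taken within a tumour, so the calls are paired by construction. A paired limma test of these ratios, added after the values were seen, put 352 genes higher and 560 lower; its adjusted p-values rest on 2 tumours and on a table of genes chosen by the authors. Counting any nonzero ratio gave 685 genes higher, 819 lower and 22 lists with at least 50% of their members on 1 side, and counting ratios of 2 or more gave 56, 169 and 7, against 250, 406 and 14 in the report. Centred on the medians, 446 genes were higher and 280 lower. From 1 tumour alone, 387 to 412 were higher. With windows of 2 kb, ATAC shares were 75.5% for higher and 94.3% for lower genes and Smad2/3 shares 13.7% and 10.4%; with 50 kb they were 98.4% and 99.5%, and 44.6% and 38.1%. With copy number calls at p of 0.001 or less, the median in SCC1 losses was -0.39. On the gene's strand alone, 24.2% of kinetochore promoters held a CHR and 51.5% a CCAAT box, and 17.5% and 2.5% of replication promoters the E2F motifs TTTGGCG and TTTCCCG. Over all genes the shares on that strand were 11.6% for the CHR, 23.7% for the CCAAT box, 0.951% for TTTGGCG and 2.05% for TTTCCCG. Leaving out ratios at the limit moved no count by over 1.5 times. Of all values recomputed, 21 moved and 8 did not at ratios of 2 or more, 14 and 14 at any size, 11 and 18 after centring, 4 and 24 from SCC2 alone, and 6 and 22 from SCC1 alone. Centring turned the sign of the medians of keratinocyte differentiation genes (-0.17 to 0.17) and solute carriers (-0.12 to 0.22) in SCC2. The mm9 note, the unknown depth, the single library per population and the authors' choice of genes limit every value.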

Other observations

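Gene groups that came to notice in the values and were listed afterwards are given as descriptions. All 6 tubulin genes of the table, which build microtubules, were below 0 in both tumours and 5 were counted as lower, with medians of -1.15 (SCC1) and -1.63 (SCC2) per the authors' deposited table. Tubb3 stood at -2.43 and -1.70 and Tuba1b at -1.20 and -1.87 per the authors' deposited table. Of 10 genes of serine, one-carbon and amino acid supply (24 listed) all were below 0 and 6 were counted as lower, with medians of -1.24 and -1.06 per the authors' deposited table. Mthfd2, a mitochondrial folate enzyme, was at -1.98 and -1.43, Psat1, of serine synthesis, at -1.46 and -1.49, and Cth, which makes cysteine, at -1.29 and -1.60 per the authors' deposited table.

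Of 12 neutrophil genes (19 listed) 6 were counted as higher, and from SCC1 alone all 12, with medians of 2.62 (SCC1) and 1.04 (SCC2) per the authors' deposited table. Trem1, a receptor of neutrophils and monocytes, was at 4.47 in SCC1 and -0.10 in SCC2, and Retnlg at 3.24 and -0.36 per the authors' deposited table. Pglyrp1 and Ltf, proteins of neutrophil granules, were high in both, at 2.41 and 2.49 and at 1.89 and 1.68 per the authors' deposited table. S100a8 and S100a9, which keratinocytes also make, stood at 2.62 and 0.81 and at 2.58 and 0.40 per the authors' deposited table. The genes were thus higher in SCC1 by more than in SCC2 for 10 of 12 members.

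Genes that were high in double negative cells of both tumours and belong to none of the lists included Cyp26b1, which breaks down retinoic acid, at 3.38 in SCC1 and 3.18 in SCC2 per the authors' deposited table. Fam71a was at 3.08 and 3.55, and the monooxygenase gene Fmo1 at 2.85 and 5.48 per the authors' deposited table. These 3 were chosen after their values were seen.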
